A study of Mus musculus with 4 samples.

Results

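Pancreatic acinar genes were examined on 4 Affymetrix arrays of intestinal epithelial cells (IECs) and Peyer's patch (PP) cells from germ-free (GF) mice and from GF mice colonized with Lactobacillus NK318.1. The set held 31 genes that encode digestive enzymes, other products of acinar cells and the transcription factors of these cells. They were chosen because many of them had differed between the 2 epithelial arrays, so their epithelial values are given as a description. On the array, 29 of the 31 genes had at least 1 probe set of their own, among 18193 genes in all. Try4 had a single probe set, which the annotation shares with Try5, and no probe set carried the name Pnlip in the table used here. In all, 52 probe sets were annotated to the members, of which 50 named 1 gene.

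All mice were C57BL/6 and were kept in gnotobiotic isolators. The colonized mice had received 100000000 bacteria of the 1 strain and were sampled 2 weeks later, and the GF mice received none. Each array carried the RNA of pooled mice, so there was 1 array per group, no spread between mice could be measured and no difference was tested. Per the methods, mice from the isolator were 4 weeks old when given bacteria by mouth, without a statement that this covers the mice on these arrays, whose sex is not given.

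Acinar cells of the exocrine pancreas make the enzymes that digest protein, fat, starch and nucleic acids in the gut lumen. They store them, the proteases as inactive precursors, in zymogen granules and release them into the duodenum when cholecystokinin and nerves act on the gland. The acinar program is driven by the PTF1 complex, in which Ptf1a and Rbpjl bind DNA together, and by Bhlha15 (MIST1), which shapes the secretory apparatus. Nr5a2 works with PTF1 in the pancreas and is also active in intestinal crypts. The main enzymes reach the intestine as proteins, and villus enterocytes are not known as a source of their mRNA.

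The median intensity of the 4 arrays ran from 23.0 to 23.3. A floor was set at an intensity of 15.5, the median over the arrays of the 40th percentile, and genes with at least 1 of the 2 arrays of a tissue above it are called measured there. The ratio of 3′ to 5′ signal for β-actin, which grows as RNA breaks down, was 1.60 and 1.74 in the GF and colonized PP and 2.73 and 4.10 in the IECs. Xist, the X-inactivation RNA of female cells, had 21.7 and 4586 in the GF and colonized PP and 46.7 and 4889 in the IECs, so colonization and the sex of the pools cannot be told apart.

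Promoter sequences of 4 genes are shown as examples of members with unlike ratios. Cel had the highest ratio of all members, Rbpjl is a subunit of PTF1 that stayed near the floor, and Pnliprp1 and Pnliprp2 are related lipase genes on chromosome 19 with opposite ratios. Each line gives the 250 bases before the RefSeq start (GRCm38.p6), 5′ to 3′ on the strand of the gene. Capitals mark the E-box CACCTG, the RBPJ-type half-site TTCCCA and the NR5A2-type site CAAGGTCA, each on either strand.
Cel (chr2:28563404-28563653, minus strand): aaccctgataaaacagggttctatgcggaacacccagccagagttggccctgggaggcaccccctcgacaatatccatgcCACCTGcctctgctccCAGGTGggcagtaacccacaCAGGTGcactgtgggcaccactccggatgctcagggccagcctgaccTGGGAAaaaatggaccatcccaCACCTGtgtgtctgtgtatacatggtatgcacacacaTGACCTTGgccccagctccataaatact
Rbpjl (chr2:164402944-164403193, plus strand): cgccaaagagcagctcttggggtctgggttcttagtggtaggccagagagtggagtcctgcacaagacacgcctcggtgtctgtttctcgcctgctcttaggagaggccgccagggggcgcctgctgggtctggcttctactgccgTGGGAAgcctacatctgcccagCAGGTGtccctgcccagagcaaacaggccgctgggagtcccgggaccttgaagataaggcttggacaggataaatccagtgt
Pnliprp1 (chr19:58728637-58728886, plus strand): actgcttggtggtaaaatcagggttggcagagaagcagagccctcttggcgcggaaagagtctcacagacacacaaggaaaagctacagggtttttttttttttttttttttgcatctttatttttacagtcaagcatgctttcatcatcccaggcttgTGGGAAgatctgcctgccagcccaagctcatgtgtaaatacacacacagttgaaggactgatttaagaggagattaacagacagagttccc
Pnliprp2 (chr19:58759473-58759722, plus strand): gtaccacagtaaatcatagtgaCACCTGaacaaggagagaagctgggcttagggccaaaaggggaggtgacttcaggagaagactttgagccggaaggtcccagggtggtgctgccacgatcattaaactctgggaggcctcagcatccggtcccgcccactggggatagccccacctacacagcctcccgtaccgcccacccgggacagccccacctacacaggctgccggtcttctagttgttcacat

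PTF1 is known to bind an E-box and an RBPJ-type half-site side by side. Of the 26 members with a promoter in the RefSeq table, 17 held CACCTG, or 65.4%, against 19.4% of 27025 genes. TTCCCA was found in 15 of the 26, or 57.7%, against 24.1% of all genes. CAAGGTCA was found in 2 members, Cel and Klk1, and in 1.51% of all genes. Both half-sites within 30 bases of each other occurred in 3 members, Cel, Rbpjl and Reg2, and in 1.26% of all genes. The gap was 16 bases in Cel, 16 bases in Rbpjl and 6 bases in Reg2. Of the 26, 15 were at least 2-fold higher in colonized IECs, 7 had a ratio that was not, and 4 had none. CACCTG was found in 8 of the 15 and in all 7, counting either start of Nr5a2. TTCCCA was found in 10 of the 15 and in 3 of the 7, and the pair in 1 and 2. No test was made of these counts. A match shows only that the letters occur in this window.

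In the IECs, the colonized array exceeded the GF array at least 2-fold for 15 of 25 measured members, and 1 member was at least 2-fold lower. Among all 13874 genes measured there, 2.63% passed the limit upward and 1.54% downward. The median log2 ratio of colonized over GF was 1.60 for the members and 0.019 for all measured genes. The members were picked from this contrast, so nothing further is read from these counts. Of the 25, 22 lay above the floor in the GF array, with 14 at least 2-fold higher and 1 lower. The other 3, Pdia2, Ctrc and Gatm, counted as measured through the colonized array alone. The remaining 4, Ptf1a, Serpini2, Erp27 and Cckar, lay under the floor in both IEC arrays.

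**Figure D1:**
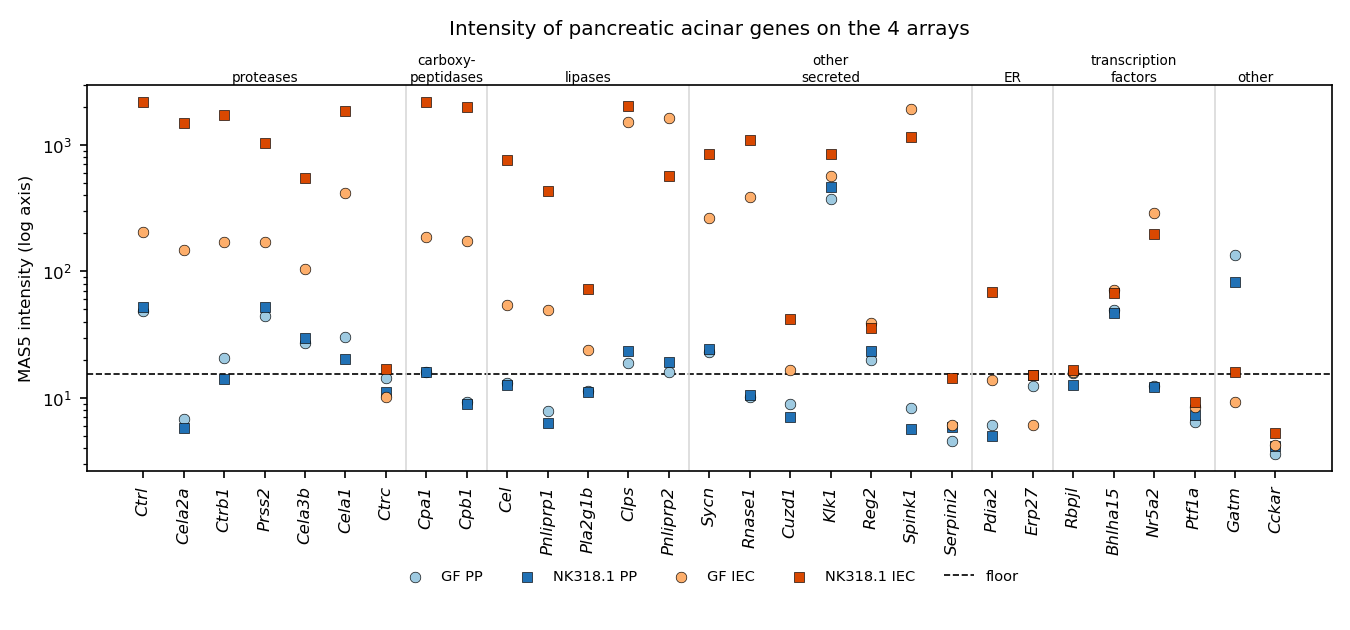
MAS5 intensity (log axis) of the 29 members with a probe set of their own on each of the 4 arrays, ordered by role; circles are GF, squares are colonized, blue is PP, orange is IEC, and the dashed line is the floor of 15.5. The enzymes at the left stand apart between the 2 IEC arrays while both PP arrays stay low, and the transcription factors show no such gap.

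Most measured secreted products passed the 2-fold limit in the IECs, and none of the few measured transcription factors did. Of 20 measured genes for enzymes and other secreted or granule proteins, 14 were at least 2-fold higher in the colonized IECs and 1 was lower, with a median log2 ratio of 1.92. Of 3 measured transcription factors, 0 were 2-fold apart in either direction, and their median was −0.085. Among all genes measured in the IECs, 2.63% passed the limit upward and 1.54% downward, so 0 of 3 lies near that share. As the members were picked from this contrast, nothing is read from the comparison of the groups. Ptf1a, without which no exocrine pancreas forms, had 6.45 and 7.34 in the GF and colonized PP and 8.42 and 9.35 in the IECs, under the floor on every array. Its partner Rbpjl had 15.7 and 12.6 in the PP and 16.0 and 16.7 in the IECs, close to the floor on each. A second probe set of Rbpjl lay under the floor on every array, with 13.5 and 14.0 in the IECs.

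The last 2 factors were measurable but were not higher in the colonized array. Bhlha15, which plasma cells and other secretory cells also use, had 49.6 and 47.0 in the GF and colonized PP and 71.4 and 67.3 in the IECs, a log2 ratio of −0.078 in the PP and −0.085 in the IECs, and its second probe set lay under the floor. Nr5a2 had 12.5 and 12.1 in the PP and 288 and 198 in the IECs, an epithelial log2 ratio of −0.54. Of its 4 probe sets 3 were measured in the IECs, and their log2 ratios ran from −0.81 to −0.031. The arrays cannot show whether a factor under the floor was absent, only that its signal was within the background of these probe sets.

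Among the proteases, 6 of the 7 measured passed the 2-fold limit upward in the colonized IECs. Ctrl, a chymotrypsin-like protease, had 48.3 and 52.1 in the GF and colonized PP and 205 and 2177 in the IECs, a 10.6-fold difference. Ctrb1, chymotrypsinogen B, had 20.7 and 14.1 in the PP and 170 and 1709 in the IECs (10.0-fold). Cela2a, a pancreatic elastase, had 6.81 and 5.82 in the PP, both under the floor, and 146 and 1477 in the IECs (10.1-fold). In these 3 genes the colonized epithelial array stood far above the other 3 arrays, and the GF epithelial array lay between it and the PP.

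Prss2, an anionic trypsinogen whose product starts the activation of the other zymogens, had 44.0 and 52.2 in the PP and 171 and 1027 in the IECs (6.00-fold). Its 4 probe sets gave ratios from 4.31 to 9.62. Cela3b, another elastase, had 27.2 and 29.9 in the PP and 105 and 551 in the IECs (5.23-fold). Its other probe sets reached 11.8, and the probe set used for the gene gave the lowest of the 4. Cela1, an elastase that is also made outside the pancreas, had 30.3 and 20.4 in the PP and 418 and 1859 in the IECs (4.44-fold).

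Ctrc, chymotrypsin C, which cleaves and thereby controls trypsin, was the exception. It had 14.3 and 11.1 in the PP and 10.1 and 16.9 in the IECs, so it stayed within a narrow band around the floor on all 4 arrays. Its epithelial log2 ratio was at least 0.12. This gene has 1 probe set, so no second measurement of it was to be had.

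Both carboxypeptidases were among the highest. Cpa1, carboxypeptidase A1, had 15.9 on each PP array and 188 and 2179 in the IECs (11.6-fold). Cpb1, carboxypeptidase B1, which removes basic residues from peptide ends, had 9.23 and 8.88 in the PP and 173 and 1987 in the IECs (11.5-fold). With Cel, Ctrl, Cela2a, Ctrb1 and Pnliprp1 they made up the 7 genes that differed at least 8-fold, in a band from 8.80 to 13.8. Their substrates differ and range from peptide bonds to cholesterol esters. The next member in order, Prss2, had 6.00-fold. The band and this step depend on the probe set used, since others of Prss2 and Cela3b reached 9.62-fold and 11.8-fold.

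The lipid-digesting products fell into both directions. Cel, the bile salt-stimulated lipase, had 13.1 and 12.6 in the PP and 54.5 and 753 in the IECs, the highest ratio of the set (13.8-fold). Pnliprp1, a lipase-related protein with little known activity, had 7.83 and 6.38 in the PP and 49.2 and 432 in the IECs (8.80-fold). Pla2g1b, the pancreatic phospholipase A2, had 11.4 and 11.1 in the PP and 23.8 and 72.4 in the IECs (3.04-fold). Of its other 3 probe sets 1 was at least 4.90-fold higher and the others lay under the floor on every array.

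Clps and Pnliprp2 differed from these lipases. Clps, colipase, which anchors pancreatic lipase to fat droplets, had 19.0 and 23.3 in the PP and 1530 and 2033 in the IECs, a log2 ratio of 0.41, with 0.57 from its second probe set. Pnliprp2, a lipase and galactolipase, had 16.0 and 19.3 in the PP and 1623 and 567 in the IECs, a log2 ratio of −1.52. Its second probe set had 579 in GF and 207 in colonized IECs and gave −1.49. Both genes were thus far above their PP values in the GF epithelial pool already, and Pnliprp2 was the only member at least 2-fold lower.

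**Figure D2:**
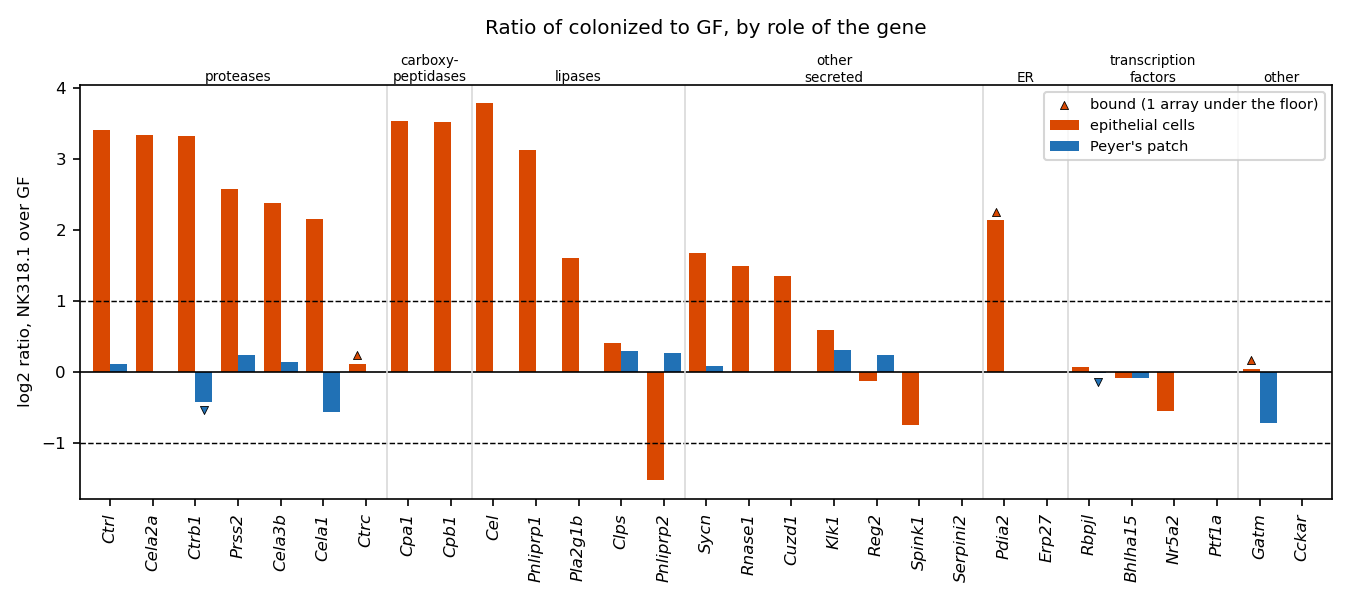
Log2 ratio of colonized (NK318.1) over GF intensity for each member in IECs (orange) and PP (blue), by role; dashed lines mark 2-fold, triangles mark bounds, and a missing bar means that both arrays lay under the floor. The exception is Cpa1 in the PP, which was measured there with a log2 ratio of 0. Proteases, carboxypeptidases and most lipases reach up to 3.79 in IECs, the transcription factors lie between −0.54 and 0.067, and no PP bar passes 2-fold.

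Among the other secreted and granule proteins, 3 of the 6 measured passed the limit upward in the colonized IECs. Sycn, syncollin of the zymogen granule membrane, had 23.1 and 24.4 in the PP and 263 and 846 in the IECs (3.22-fold). Rnase1, pancreatic ribonuclease, had 10.2 and 10.5 in the PP and 384 and 1084 in the IECs (2.82-fold). Cuzd1, a zymogen granule protein, had 8.97 and 7.01 in the PP and 16.6 and 42.4 in the IECs (2.56-fold), with the GF value just above the floor. It was the last member past 2-fold, and the next in order, Klk1, had 1.51-fold.

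Klk1, tissue kallikrein, had 372 and 463 in the PP and 566 and 855 in the IECs. Its 4 probe sets did not give the same picture of the PP, since another had 18.0 and 7.41 there and 810 and 1138 in the IECs. In the IECs all 4 lay between 0.28 and 0.59 on the log2 scale. Spink1, the trypsin inhibitor that acinar cells pack with trypsinogen, had 8.35 and 5.67 in the PP and 1934 and 1155 in the IECs, a log2 ratio of −0.74. This inhibitor thus stayed within the 2-fold limit, while its target Prss2 was 6.00-fold higher in the same colonized pool. Whether both transcripts came from the same cells was not tested. Reg2, of the regenerating protein family, had 20.0 and 23.6 in the PP and 39.0 and 35.8 in the IECs (−0.13). Serpini2, a serpin of acinar cells, had 6.10 and 14.3 in the IECs, both under the floor.

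The remaining members serve folding, signalling and metabolism. Pdia2, the pancreatic protein disulfide isomerase, had 6.15 and 5.03 in the PP and 13.8 and 68.2 in the IECs, at least 4.40-fold higher. Erp27, a partner of such isomerases, had 12.5 and 15.1 in the PP and 6.15 and 15.2 in the IECs, all under the floor. None of its values could be told from background. Cckar, the cholecystokinin receptor, lay between 3.62 and 5.25 on the 4 arrays, also under the floor. Gatm, an enzyme of creatine synthesis that acinar cells hold in large amounts, had 136 and 82.8 in the PP and 9.35 and 16.1 in the IECs, and it was the only member at least 2-fold lower in the GF IECs than in the GF PP.

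Where several probe sets of a gene were measured in the IECs, they pointed the same way. In the IECs, 8 members had more than 1 measured probe set, and in all 8 the probe sets shared their sign and their side of the 2-fold limit. Probe sets under the floor in both IEC arrays were not counted, as for Pla2g1b (4.52 and 5.58, 5.09 and 4.35 in GF and colonized). Another of Pla2g1b (6.74 and 76.0) counted through the colonized array alone. Over the 40 measured probe sets of single members, 23 were at least 2-fold higher and 2 lower, both of Pnliprp2. The share over all probe sets was not computed and the members were picked from this contrast, so nothing is read from these counts. Trypsin and elastase genes have near-identical copies, so signal of a copy may count toward Prss2 or Cela3b.

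**Figure D3:**
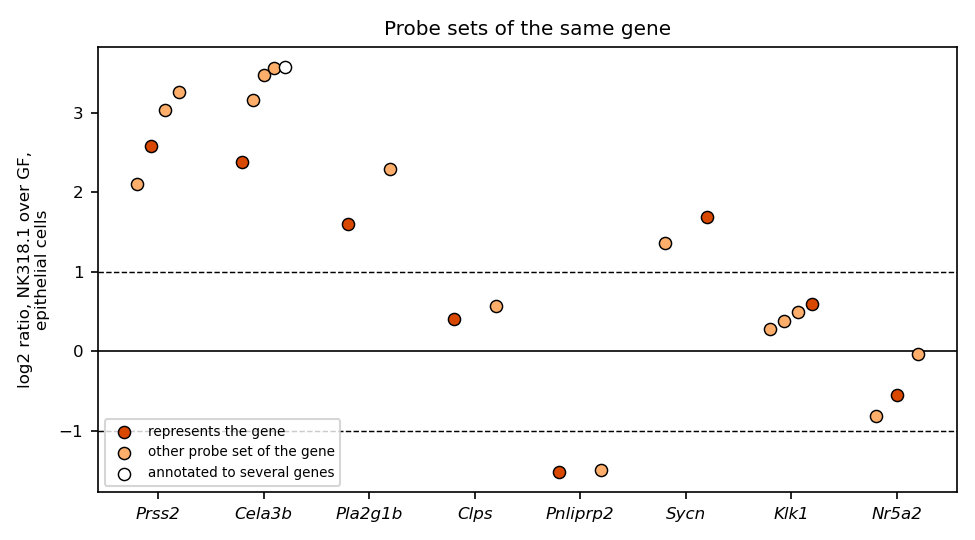
Log2 ratio of colonized over GF intensity in IECs for each measured probe set of the 8 members that have several; dark points represent the gene, light points are its other probe sets, and the open point is a probe set shared by Cela3a and Cela3b. Prss2 spans 2.11 to 3.27 and Cela3b 2.39 to 3.56, and the probe sets of each gene stay on the same side of the dashed 2-fold lines.

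Many members already had more signal in the GF epithelial pool than in the GF PP, which does not show the cells it came from. Of 23 members above the floor in the GF IECs or the GF PP, 16 were at least 2-fold higher in the IECs, against 16.0% of all genes measured in either array, with a median log2 difference of 2.09. Cpb1 had 173 in GF IECs and 9.23 in GF PP, and Cpa1 had 188 and 15.9. The 4 members brightest in the GF IECs, Spink1, Pnliprp2, Clps and Klk1, did not include any that was 2-fold higher in the colonized IECs, and their median log2 ratio was −0.17. A choice by high GF value favours low ratios over GF, so nothing is read from this. The summed intensity of the members was 8495 in the GF and 21269.9 in the colonized IECs. The largest parts of the GF sum were Spink1 (1934), Pnliprp2 (1623) and Clps (1530), none of them 2-fold higher in the colonized IECs. Cel had 54.5 and Pnliprp1 49.2 in the GF IECs. In bulk RNA, more cells of a type and more RNA per cell cannot be told apart.

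In the PP, none of 14 measured members differed 2-fold in either direction. The same limit was passed upward by 0.149% and downward by 0.573% of 12736 measured genes. The log2 ratios of the members ran from −0.71 for Gatm to 0.32 for Klk1. Their median was 0.095, against −0.033 for all measured genes. The other probe sets of Klk1 had −0.42 or lower (20.7 and 7.55), −0.22 or lower (18.0 and 7.41) and 0.0058. The bounds arise because the colonized values lay under the floor, so a 2-fold difference in those probe sets could not be seen. Cela1 had −0.57 and Ctrb1 −0.42 or lower. The 15 other members, with Cel, Cpb1, Cela2a and Pnliprp1 among them, lay under the floor on both PP arrays. A difference under the floor, even one of 2-fold or more, could not be seen there.

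Among other acinar genes, those with a probe set of their own did not share the pattern of the enzymes as a whole. A probe set shared by the amylase genes Amy2a1 to Amy2a5 did, at 7.40-fold, and lies outside the counts given here. Of 32 genes, 18 had a probe set of their own and 16 were measured in the IECs, with 4 at least 2-fold higher, 1 lower and a median log2 ratio of 0.16. The higher ones were Tff2 (6.41), a trefoil peptide that is also a product of gastric neck cells, Gp2 (2.40 or more), the main protein of zymogen granule membranes and a marker of M cells, Reg1 (1.58) and Dmbt1 (1.42), a mucosal scavenger protein. Gp2 had 8.81 in GF and 82.1 in colonized IECs. Dnase1 was lower (−1.08) and Gnmt next (−0.41). Of 24 genes of the general secretory pathway, 0 differed 2-fold, with a median of 0.054, Pdia6 (0.47) and Hspa5 (0.42) highest and Edem1 (−0.71) lowest.

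Markers of neighbouring organs and of other intestinal cells moved in the same comparison. Of 11 measured pancreatic islet genes 4 were at least 2-fold higher in the colonized IECs, with Ins2 at 43.4 in GF and 900.1 in colonized, Iapp at 45.6 and 348 and with Pdx1, which the duodenum also expresses, and Nkx2-2 as the others. Glucagon (Gcg), which intestinal L cells also make, had 509.7 and 496, and Slc2a2 had a log2 ratio of −0.30. The median log2 ratio of the islet list was 0.89. Its summed intensity was 2130 in GF and 4532 in colonized IECs, with Chgb the largest part at 986 and 1877. On every array 5 islet genes, among them Nkx6-1 and Slc30a8, lay under the floor. Of 11 measured duct genes 3 were higher (Muc1 1.88, Car2 1.39, Slc4a4 1.03) and 0 lower, with Cftr and Aqp1 at −0.50 each. The duct sum of 12329 and 14590 was mostly Tff3 (5700 and 6500) and Krt19 (4160 and 4011, log2 ratio −0.053). Which cells gave that signal was not tested. Of 11 measured genes of gastric surface and neck cells 10 were higher, with a median log2 ratio of 5.55, a sum of 441 and 33811, and only Sox2 under the floor on every array. Of 8 measured chief and parietal cell genes 2 were higher, Cblif (1.84 or more) and Pgc (1.66), with a median of −0.014, a sum of 482 and 491, and Lipf and Kcne2 under the floor throughout.

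Genes along the intestine differed as well. Of 11 measured genes of the duodenum 3 were higher, Pdx1 (2.83), Gip (2.76) and Slc40a1 (1.20), and 0 were at least 2-fold lower. The median log2 ratio of the 11 was 0.14, and Fgl2 (−0.76) and Lct (−0.53) were lowest. Their sum was 1752 and 4187, of which Gip had 383 and 2598. Of 9 measured ileal genes 7 were at least 2-fold lower, with Fabp6 at −2.48 and a sum of 8912 and 2707. Enterocyte genes had a median of −0.59 (2 of 14 lower, sum 40388 and 27878), the Paneth cell list −1.42 (7 of 8 lower, sum 40126 and 18822) and lymphocyte genes −2.15 (7 of 11 lower, sum 5884 and 712). The lower genes of the Paneth cell list included Guca2b (−1.05), Reg3b (−2.69) and Reg3g (−2.57), and Lyz1 (−0.72) was the one not 2-fold lower. Whether that signal came from Paneth cells was not tested. Fat and mesothelial genes, which would come with tissue around the gut, had 1 of 6 higher, Fabp4 (1.21), a sum of 226 and 310, and Adipoq, Lep, Lrrn4 and Wt1 under the floor on every array. The part of these cell types in the acinar values was not tested.

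**Figure D4:**
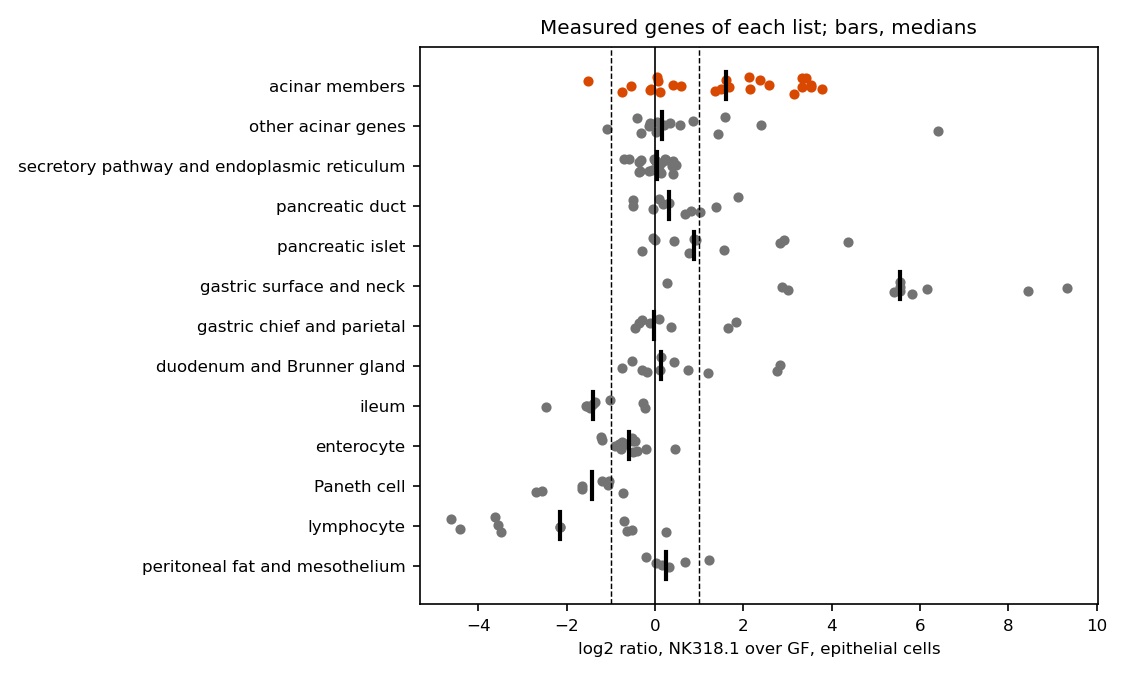
Log2 ratio of colonized over GF intensity in IECs for each measured gene of the acinar members (orange) and of 12 other lists (grey); black bars are medians and dashed lines mark 2-fold. The acinar members have a median of 1.60, the gastric surface and neck genes 5.55 and the general secretory genes 0.054, and the ileal, Paneth cell and lymphocyte genes lie mostly below 0.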

How the data were processed

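RNA of pooled GF or Lactobacillus NK318.1-colonized C57BL/6 mice was hybridized to 4 Affymetrix arrays, 1 per tissue and group. The authors deposited a linear intensity per probe set, and MAS5 is named in the submitters' processing notes, without its version or settings. The trimmed mean of all probe sets, which MAS5 scaling usually equalizes, ran from 85.3 to 95.1 over the arrays, so the scaling used is not known.

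The intensities were taken as deposited. Besides 64 controls there were 45037 probe sets, of which 34945 name 1 gene, 932 several and 9160 none in the annotation table. Where a gene had several probe sets, the one brightest on average (mean log2 intensity, all 4 arrays) stood for it. Values under the floor were raised to it, which makes ratios against them bounds. A gene was counted at 2-fold, the fold limit of the study's methods, whose adjusted p-value cannot be had from 1 array per group. All members are named. Of the other lists, the 4 highest and 2 lowest genes and markers under the floor on every array could be named. Tff3, Krt19 and Chgb are named besides, as the brightest genes of the duct and islet lists. The members and lists were chosen with earlier results of these data known. The counting was tested on simulated data. Promoters were RefSeq sequences of GRCm38.p6, not the arrays' own. Alternatives were median centring, quantile normalization, floors at the 25th and 60th percentile or none, other choices of probe set, and limits of 1.5-fold and 4-fold. Python 3.11.15, numpy 2.4.6, pandas 2.3.3 and matplotlib 3.10.9 were used.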

Additional observations from a re-analysis of the deposited data

Results flagged for a closer look

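Probe sets that the annotation gives to several genes were left out of the counts and carried a signal too. The probe set of Cela3a and Cela3b had an intensity of 3.22 and 4.63 in the GF and colonized PP and of 235 and 2802 in the IECs. That of Try5 and Try4 had 5.91 and 5.95 in the PP and 249 and 1915 in the IECs. That of the 5 pancreatic amylase genes Amy2a1 to Amy2a5, which encode the starch-digesting enzyme, had 3.10 and 3.80 in the PP and 609 and 4504 in the IECs. The ratios in the IECs were 11.9-fold, 7.68-fold and 7.40-fold. No single gene of these groups can be named as the source.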

How the results depend on the processing

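No paired analysis was possible because there was a single array for every group, and no array could be left out for the same reason. The count of members at least 2-fold higher in the IECs stayed within 1.5 times of 15 under the 9 other settings listed among the methods, with 11 at 4-fold and 17 without a floor. The count of lower members in the IECs was 2 at 1.5-fold and 0 at 4-fold, and that in the PP was 1 at 1.5-fold. The median of 1.60 in the IECs lay under the 4-fold limit. With the floor at the 60th percentile, Pla2g1b (0.96), Cuzd1 (0.19) and Pdia2 (0.87) no longer reached 2-fold, and neither did Pla2g1b with averaged probe sets (0.30). Choosing the brightest probe set in the IECs alone, an alternative chosen after seeing the data, gave 15 higher and 1 lower in the IECs. It moved the PP median from 0.095 to −0.019, and 3 planned settings also put it below 0, at −0.032 without a floor, −0.0080 when probe sets were averaged and −0.016 with a 25th percentile floor. Depth cannot be given for arrays, whose number limits the precision here.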
